A study of Rattus norvegicus with 9 samples.

Results

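Spleens of rats given thioacetamide (TAA) were compared with spleens of control rats across every gene that passed a filter on low counts. TAA is a liver toxin that is used to produce cirrhosis in rodents, and the study as a whole concerns enlargement of the spleen in cirrhosis. The comparison holds 6 of the 9 libraries of the series: 3 labelled control and 3 labelled TAA. The libraries that also received celecoxib are not part of it. Per the labels, all 6 libraries come from wild-type rat spleen, and the TAA rats were injected into the peritoneum every 3 days, with 200 mg/kg during the first 8 weeks and 100 mg/kg during the 8 weeks that followed. Nothing further is said of what the control rats received, and the sources used here do not give strain, sex or age. The labels do not say that each library came from its own animal, so every p-value below measures a difference against the spread between these libraries, which may be technical.

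The spleen filters blood and houses lymphocytes. Its red pulp is a meshwork of sinuses and macrophages that removes old red cells and recycles their iron, and its white pulp is organised into T cell and B cell zones. In rodents the red pulp also makes blood cells, so that erythroid, granulocyte and megakaryocyte precursors are found there. When cirrhosis raises the pressure in the portal vein, the spleen becomes congested and grows, and its mixture of cells can shift. In RNA from whole tissue, fewer cells of a type and less RNA per cell cannot be told apart.

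Of 34408 gene entries, 15552 passed the filter and were tested. Totals ran from 14211789 to 19014761 counts per library. Values are given as CPM, in which counts are scaled to one library total by TMM library sizes, for control 1, 2 and 3 and then for TAA 1, 2 and 3. Mitochondrial genes held 3.04% to 4.04% of the counts, haemoglobin genes 0.840% to 3.76%, and immunoglobulin genes 1.62% to 3.29%. The first principal component took up 36.5% of the variance, and on it control 1 lay at -68.9 and TAA 3 at 50.9, while the other 4 libraries lay between -2.32 and 8.13. Albumin transcripts (Alb), made by hepatocytes, were at 88.5 CPM in control 1 and 579 CPM in TAA 1 and at most 0.158 CPM in the others. The tissue label was borne out by its defining cells: the B cell marker Ms4a1 lay between 283 and 375 CPM and the macrophage marker Cd68 between 99.4 and 267 CPM in the 6 libraries. Splenocytes is given as the cell type in the labels, yet the fibrillar collagen Col1a1, a product of stroma, was present at 55.6 to 192 CPM.

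No single gene passed the threshold of an adjusted p of 0.05 in edgeR's quasi-likelihood test, so 0 of 15552 genes (0%) were called, and the smallest adjusted p was 0.0699. An unadjusted p under 0.05 was found for 1236 genes (7.95%), where 778 would be expected by chance if genes were independent. Of these, 629 (4.04%) were higher in TAA and 607 (3.90%) were lower. Limma-voom likewise called 0 genes and gave 1180 with an unadjusted p under 0.05. DESeq2, run on the same genes, called 145 (0.932%), of which 87 (0.559%) were higher in TAA and 58 (0.373%) lower. In 2291 genes (14.7%) the 3 TAA values lay entirely to one side of the 3 control values. Such genes are called separated here: 1047 (6.73%) were higher in TAA and 1244 (8.00%) lower. An exact permutation test of 3 against 3 libraries has 10 splits and cannot go below p = 0.1 for any gene. Because edgeR called 0 genes, the account below gives values, and the words higher and lower describe fitted values, not calls.

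The 56 gene lists used below cover cell types, pathways and neighbouring tissues, and 1094 of their 1252 distinct genes were tested. Each list is described by the number of its tested members that were higher or lower, by how many had an unadjusted edgeR p under 0.05 or were separated, and by its median log2 fold change, TAA minus control. The median over all tested genes was 0.0033, with 7847 higher and 7705 lower. Granulocyte granule genes had the highest list median and T cell genes the lowest.

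**Figure D1:**
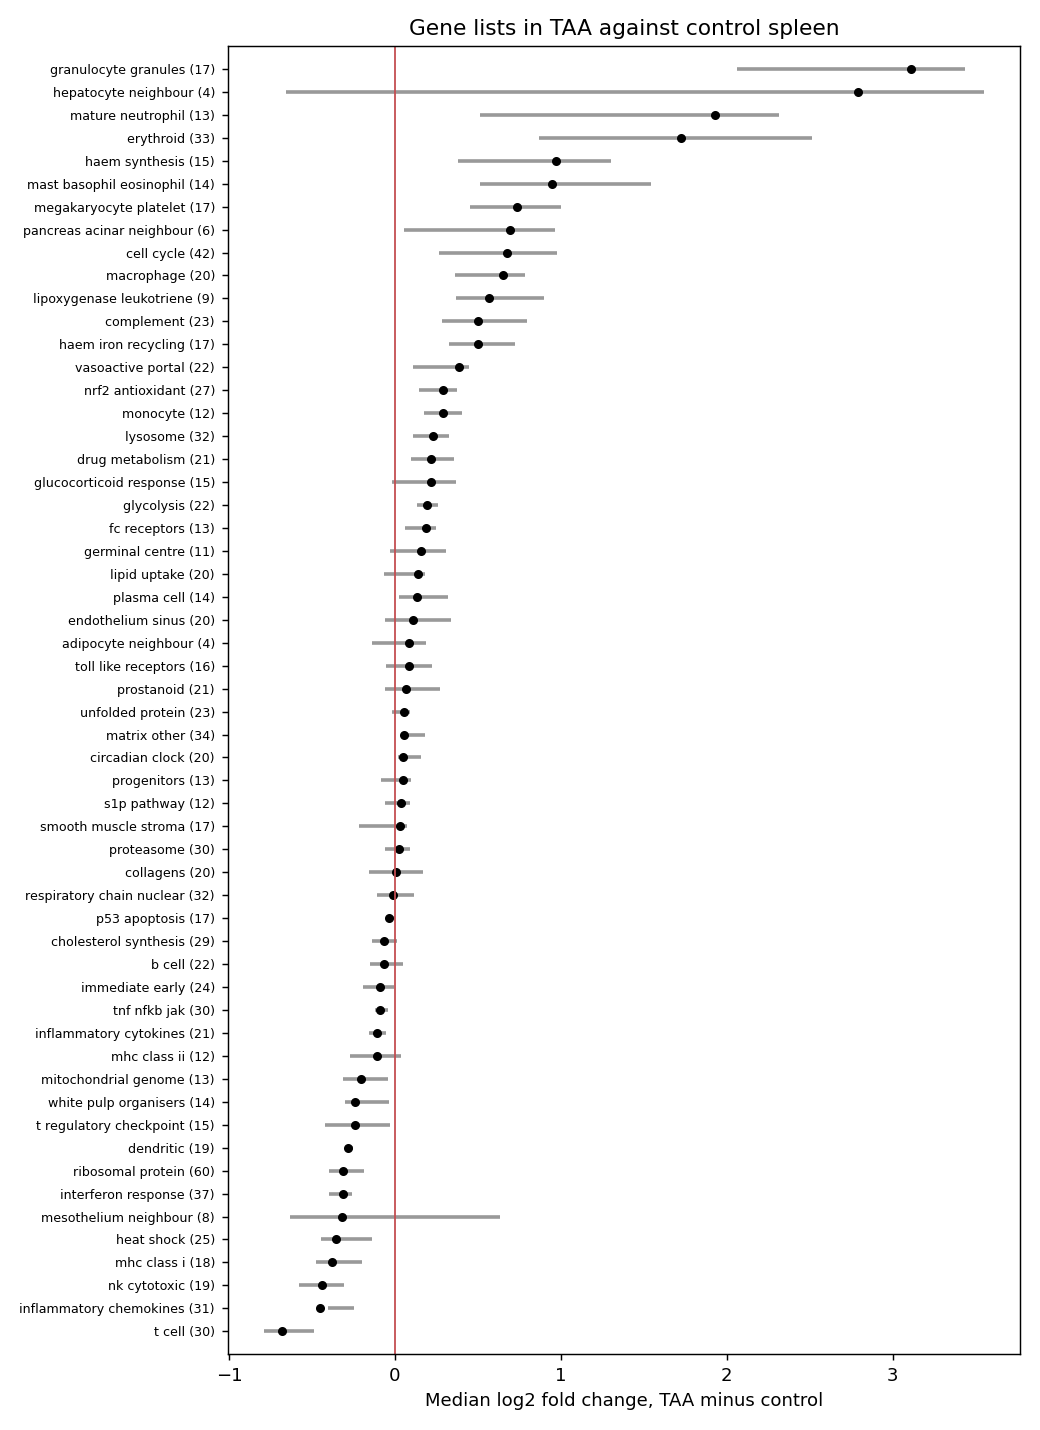
Median log2 fold change (horizontal axis, TAA minus control) of each gene list, with the number of tested members in brackets. Black points are medians over all 6 libraries, grey bars span the lowest to the highest median when 1 library was left out, and the red line marks the median of all tested genes. Granulocyte granules lie highest at 3.11 and T cells lowest at -0.68, and the bar of the hepatocyte list crosses from -0.65 to 3.55.

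Most granulocyte granule genes were higher in every TAA library than in any control. Neutrophils and their precursors store antimicrobial peptides and proteases in granules, and these transcripts are made mainly in the precursor stages. All 17 tested members had higher fitted values, and their median log2 fold change was 3.11. An unadjusted p under 0.05 was found for 13 of them, against 4.04% of all genes in that direction, and 12 were separated, against 6.73% of all genes. DESeq2 called 11, against 0.559% of all genes in that direction. Without TAA 3, the library with the highest values, the median was 2.06. The groups overlapped in Fcnb, Chi3l1, Cebpe, Padi4 and Prg2, with log2 fold changes of 1.07, 0.24, 1.51, 0.48 and 3.86. Prg2, an eosinophil granule gene, is counted in the mast cell, basophil and eosinophil list as well.

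Camp, the cathelicidin antimicrobial peptide (ENSRNOG00000020733, chromosome 8, 117930546 to 117932518), was at 5.33, 8.94 and 7.70 CPM in the controls and at 27.6, 23.5 and 49.4 CPM in TAA. Np4, a neutrophil defensin, was at 11.3, 16.9 and 17.7 CPM and at 64.8, 71.7 and 259 CPM. For both genes the lowest TAA library exceeded the highest control, and TAA 3 stood above the other TAA libraries. The log2 fold change of Camp was 2.19 ± 0.34 (SE) with an unadjusted p of 0.000317 and an edgeR adjusted p of 0.399, and that of Np4 was 3.11 ± 0.58 with 0.00102 and 0.416. The defensins Defa5 and RatNP-3b had log2 fold changes of 3.11 and 3.33 and were separated in the same way.

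The proteases of the azurophil granule followed. Ctsg, cathepsin G, was at 2.70, 5.15 and 2.95 CPM in the controls and 20.0, 18.95 and 79.1 CPM in TAA. Mpo, the myeloperoxidase that makes hypochlorous acid, was at 4.29, 10.7 and 12.2 CPM and at 42.6, 49.95 and 209 CPM. Elane and Prtn3, neutrophil elastase and proteinase 3, had log2 fold changes of 3.64 ± 0.85 and 3.35 ± 0.84 (SE). TAA 1 and TAA 2 were nearly level with each other in these genes, whereas TAA 3 was several times higher, and the SEs are wide. Lcn2, the iron-binding lipocalin of neutrophil granules, was at 2.08, 5.38 and 3.53 CPM in the controls and at 15.7, 12.5 and 67.6 CPM in TAA, again with no overlap. Per gene length the defensin Np4 had a mean of 165 FPKM in TAA and Mpo 33.7 FPKM, so the level of the defensin transcript was the higher of the pair.

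**Figure D2:**
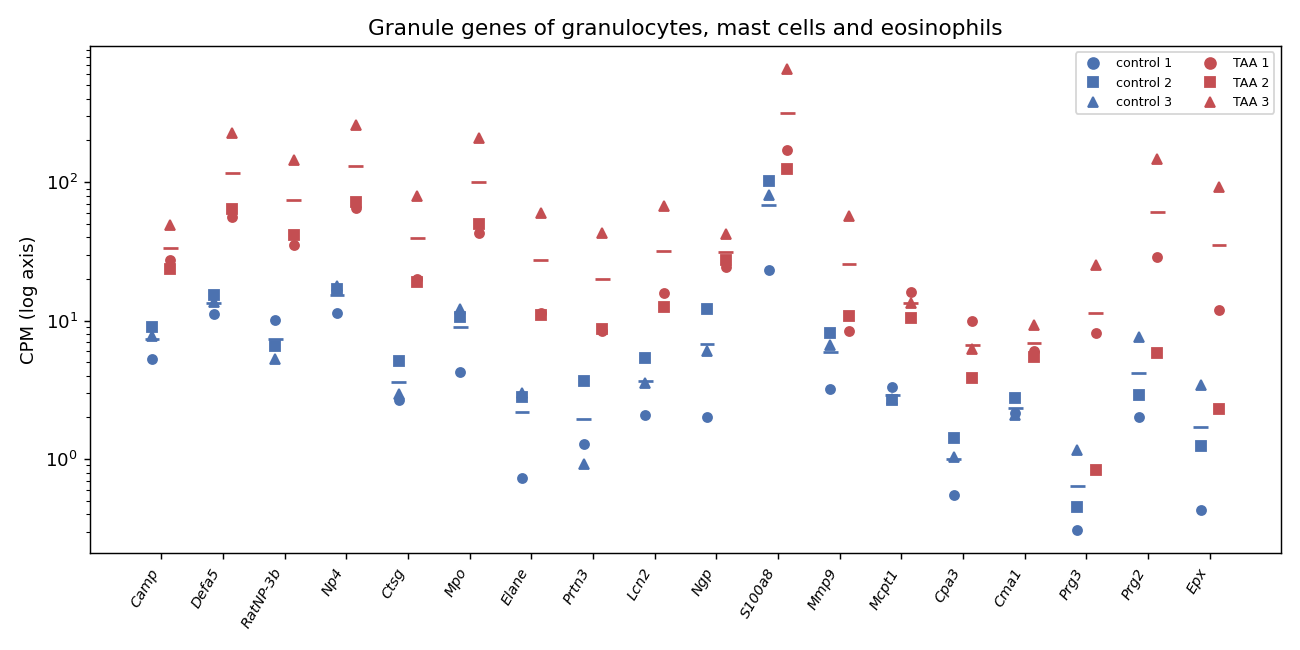
CPM (log axis) of granule genes in each library, with control in blue, TAA in red, marker shapes for replicates 1 to 3 and short lines for group means. Camp, the defensins and the azurophil proteases show no overlap between groups, the mast cell proteases Mcpt1, Cpa3 and Cma1 likewise, whereas TAA 2 lies among or next to the controls in Prg3, Prg2 and Epx.

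Genes of mature neutrophils were less evenly placed. All 13 tested members had higher fitted values, with a median of 1.93, but 4 were separated (30.8% of the list against 6.73% of all genes), and without TAA 3 the median was 0.52. S100a8, a calcium-binding protein that makes up much of the neutrophil cytosol, was at 23.3, 103 and 80.4 CPM in the controls and 172, 124 and 657 CPM in TAA. TAA 2 lay close to control 2 while TAA 3 stood far above. Cxcr2, the chemokine receptor of circulating neutrophils, was at 1.78, 19.7 and 15.7 CPM and at 16.8, 12.2 and 53.3 CPM, so its groups overlapped. Control 1 had the lowest list score, which is the mean log2 CPM of the members: it was 1.91, against 4.07 and 3.93 in the other controls and 4.35, 3.87 and 6.24 in TAA. The granule score, by contrast, was 1.65, 2.83 and 2.61 in the controls and 4.22, 4.06 and 5.95 in TAA, so that the nearest libraries across the gap were control 2 and TAA 2.

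The mast cell proteases Mcpt1, Cpa3 and Cma1 were higher in all 3 TAA libraries. Mast cells are tissue-resident granulocytes that store chymases, tryptases and a carboxypeptidase. Mcpt1, a mast cell chymase (ENSRNOG00000020625, chromosome 15, 34862266 to 35034622), was at 3.31, 2.66 and 2.72 CPM in the controls and at 16.2, 10.5 and 13.4 CPM in TAA. The group means were 2.90 ± 0.358 and 13.3 ± 2.86 CPM (SD, n = 3 each), and the log2 fold change was 2.20 ± 0.25 (SE), with an unadjusted p of 4.45e-05 and an edgeR adjusted p of 0.223. Leaving out any 1 library gave 2.04 to 2.35. Cpa3, the mast cell carboxypeptidase, was at 0.551, 1.42 and 1.04 CPM in the controls and 9.87, 3.83 and 6.20 CPM in TAA. Cma1, a further chymase, was at 2.14, 2.77 and 2.08 CPM and at 6.01, 5.43 and 9.36 CPM. All 3 proteases were separated. The listed proteases Mcpt1l1, Tpsab1 and Tpsb2 held at most 10 counts in any library and did not pass the filter. Defensins and mast cell chymases belong to families of close copies, among which reads can be split, so values of single members are uncertain.

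Ms4a2, the beta chain of the IgE receptor, was separated too, at 0.674, 1.92 and 2.72 CPM in the controls and 4.29, 3.27 and 4.47 CPM in TAA, but several other members of the mast cell, basophil and eosinophil list did not share that pattern. The eosinophil granule genes Prg2, Prg3 and Epx, which encode major basic proteins and eosinophil peroxidase, were high in TAA 1 and TAA 3 only. Prg2 was at 2.02, 2.89 and 7.64 CPM in the controls and at 29.1, 5.85 and 147 CPM in TAA, so TAA 2 lay below control 3. Hdc, the enzyme that makes histamine, was lower in TAA, at 3.86, 3.62 and 1.63 CPM against 4.78, 4.92 and 8.62 CPM. Kit, the stem cell factor receptor of mast cells and progenitors, had overlapping groups and a log2 fold change of -0.18. Over the list, 11 of 14 members were higher with a median of 0.94 (0.52 without control 1), and 4 were separated upwards and 1 downwards, against 6.73% and 8.00% of all genes.

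Alox15 encodes a lipoxygenase of arachidonic acid that eosinophils and some macrophages express. It was at 12.6, 13.8 and 17.7 CPM in the controls and 74.7, 34.4 and 46.5 CPM in TAA. The difference was 1.82 ± 0.30 (SE) on the log2 scale, with an unadjusted p of 0.000488 and an edgeR adjusted p of 0.399. Leukotriene genes lay in the same direction: Lta4h, which makes leukotriene B4, had a log2 fold change of 0.54 with separated groups, and Alox5, which starts leukotriene synthesis, one of 1.85 with overlapping groups. Of the 9 tested lipoxygenase and leukotriene genes 8 were higher, with a median of 0.57 (0.37 without TAA 3), and 3 were separated (33.3% against 6.73% of all genes).

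Red cell genes were high in TAA 1 and TAA 3, but TAA 2 resembled the controls. Of 33 tested erythroid genes, 32 were higher, and the median log2 fold change was 1.72. An unadjusted p under 0.05 was found for 21 of these, 63.6% of the list against 4.04% of all genes in that direction. Only 3 were separated, 9.09% of the list beside 6.73% of all genes higher in this way. The erythroid score was 5.40, 4.58 and 3.37 in the controls and 7.45, 5.10 and 6.19 in TAA, so TAA 2 lay below control 1. Without TAA 1 the list median was 0.87. TAA 1 also held the hepatocyte transcripts, and the part of that library's makeup in these values was not tested. TAA 2, the library that resembled the controls, held pancreatic enzyme transcripts: chymotrypsinogen Ctrb1 had 384 counts there and Prss1, a trypsinogen, 337, against at most 25 and 19 in any other library. The summed level of the 6 tested genes of the 20 listed for pancreas was 14.3 to 27.8 CPM in the controls and 21.6, 46.5 and 23.7 CPM in TAA 1, 2 and 3. That sum leaves out Ctrb1 and Prss1, which did not pass the filter and were at 26.75 and 23.48 CPM in TAA 2. The part of pancreatic transcripts in the values of TAA 2 was not tested.

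The globin gene Hbb was at 4155, 5584 and 2183 CPM in the controls and 20450, 4980 and 10840 CPM in TAA. Sptb, which encodes erythrocyte spectrin beta, was at 68.6, 42.3 and 11.1 CPM and at 485.9, 56.1 and 229 CPM. In each gene TAA 2 fell within the control range. The 3 separated members were Nfe2, Epb41 and Epor: Nfe2, a globin gene activator shared with megakaryocytes, was at 20.1, 28.1 and 23.6 CPM in the controls and 85.2, 33.4 and 56.3 CPM in TAA. Epor, the erythropoietin receptor, was at 17.9, 13.5 and 14.2 CPM and at 50.8, 18.0 and 24.2 CPM, with TAA 2 barely above control 1. Tmcc2, a gene outside the list that erythroid cells express strongly, was separated more widely, at 65.7, 38.9 and 66.4 CPM in the controls and 563, 148 and 236 CPM in TAA (log2 fold change 2.47 ± 0.50 (SE), edgeR adjusted p = 0.489).

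All 15 haem synthesis genes had higher fitted values, with a median of 0.97, yet 0 were separated. Alas2, the rate-limiting enzyme of haem synthesis in red cells, was at 152, 92.4 and 67.5 CPM in the controls and 438, 103 and 219 CPM in TAA, so TAA 2 lay between control 1 and control 2. Without TAA 1 this list's median was 0.38. Cell cycle genes shared the order of libraries in part. Of 42 tested members 40 were higher, with a median of 0.68, and 12 (28.6%) had an unadjusted p under 0.05, against 4.04% of all genes in that direction. The 4 separated members (9.52%, against 6.73% of all genes) were Cenpf, Cenpe, E2f8 and Tyms. Cenpf, a kinetochore protein made before mitosis, was at 28.7, 14.2 and 16.1 CPM in the controls and 64.2, 38.5 and 44.5 CPM in TAA. The marker of dividing cells Mki67 overlapped, at 208, 104 and 91.0 CPM against 489, 202 and 265 CPM, because control 1 lay above TAA 2. Without TAA 1 the cell cycle median was 0.26.

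**Figure D3:**
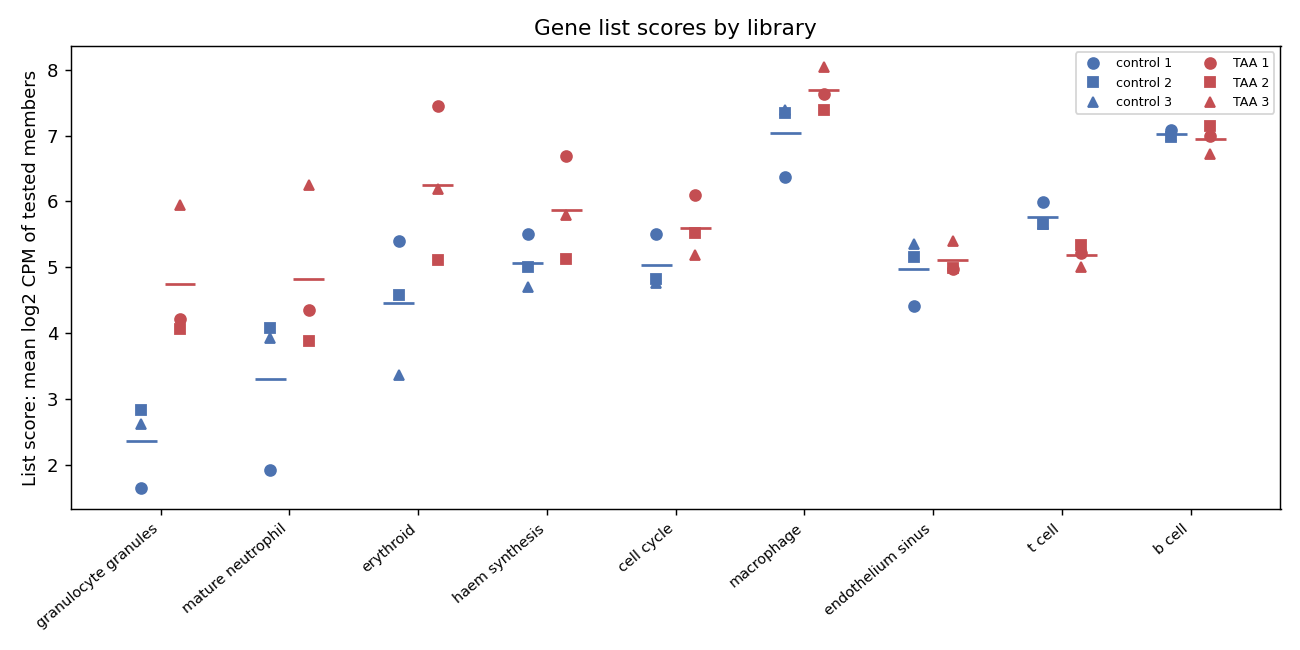
List score (mean log2 CPM of the tested members, vertical axis) of 9 gene lists in each library, with control in blue, TAA in red, marker shapes for replicates and short lines for group means. The granule and T cell scores of the groups do not overlap, whereas TAA 2 lies below control 1 in the erythroid and haem synthesis scores and control 1 lies below all other libraries in the macrophage score.

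Platelet and megakaryocyte genes were moderately higher. Of 17 tested members 16 were higher, with a median of 0.74, and 10 were separated, 58.8% of the list against 6.73% of all genes in this direction. Itga2b, the platelet fibrinogen receptor chain, was at 42.0, 60.4 and 83.0 CPM in the controls and 103, 111 and 94.7 CPM in TAA. Thbs1, thrombospondin 1, a matrix protein that platelets store, was at 32.2, 45.2 and 77.5 CPM and at 80.0, 109 and 154 CPM. Control 1 had the lowest value of both genes, and the list median was 0.45 without it. Pf4, platelet factor 4, overlapped between groups, with TAA 3 at 91.7 CPM below control 3 at 109 CPM.

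Macrophage genes pointed the same way in all 20 tested members, with a median of 0.65, and 6 were separated (30% of the list against 6.73% of all genes). Siglec1, the sialic acid receptor of marginal zone macrophages, was at 191, 242 and 285 CPM in the controls and at 379, 343 and 501 CPM in TAA, a log2 fold change of 0.77 ± 0.20 (SE) with an edgeR adjusted p of 0.545. Cd163, the receptor for haemoglobin bound to haptoglobin, was at 146, 574 and 497 CPM and at 740, 672 and 1425 CPM. Csf1r, the receptor for the main macrophage growth factor, was at 408, 731 and 784 CPM and at 938, 1007 and 1089 CPM. Control 1 was the lowest library in all 3, and without it the list median was 0.36. Cd68 overlapped between the groups, and so did C1qa. Gpnmb, a glycoprotein of lipid-laden and lysosome-rich macrophages, was separated at 186, 404 and 438 CPM against 724, 508 and 871 CPM.

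Functions of macrophages were less uniform. Among 17 genes of haem and iron recycling, 15 were higher with a median of 0.50 (0.33 without control 1), and 3 were separated (17.6% against 6.73% of all genes). Hmox1, the haem oxygenase that opens the haem ring, overlapped, at 516, 1321 and 1664 CPM against 1552, 1476 and 1525 CPM. Hp, haptoglobin, which binds free haemoglobin, was at 13.2, 9.40 and 9.90 CPM in the controls and 108, 12.9 and 64.9 CPM in TAA, so TAA 2 fell among the controls. The liver also makes haptoglobin, and its highest value was in TAA 1, where the liver product Hpx (hemopexin) was at 71.6 CPM beside at most 7.66 CPM in any other library. Of the 20 genes listed for hepatocytes 4 passed the filter: Hp, Tf, Apoa1 and Hpx. Their summed level was 170, 394 and 365 CPM in the controls and 745, 438 and 825 CPM in TAA. Tf was the largest of the 4, with means of 295 CPM in the controls and 575 CPM in TAA. Control 1, with Alb at 88.5 CPM, had the lowest sum. Fga, a liver product that did not pass the filter, was at 79.9 CPM in TAA 1, 3.43 CPM in control 1 and 0 CPM in the others. In TAA 3, Alb was at 0.158 CPM and Hp at 64.9 CPM. The part of liver transcripts in the values of Hp was not tested. Of 32 lysosomal genes 31 were higher, by a median of 0.23 that was 0.11 without control 1. Only 1 of them had an unadjusted p under 0.05 (3.12%, against 4.04% of all genes), and 5 were separated (15.6%, against 6.73% of all genes), among them the protease Ctsd at 251, 324 and 323 CPM against 415, 384 and 407 CPM. Complement genes were higher in 22 of 23, with a median of 0.50 that was 0.28 without TAA 3, and 4 were separated (17.4%, against 6.73% of all genes).

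T cell genes were lower in TAA, with the groups apart for most of them. Of 30 tested T cell genes 27 were lower, and the median log2 fold change was -0.68. An unadjusted p under 0.05 in this direction was found for 22 (73.3%), against 3.90% of all genes. Members separated downwards numbered 22, against 8.00% of all genes. DESeq2 called 3, all lower, against 0.373% of all genes in that direction. The median lay between -0.79 and -0.49 when any 1 library was left out, and it was nearest to 0 without control 1, in which several of these genes were highest.

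Cd8a, a chain of the co-receptor of cytotoxic T cells, was at 79.0, 82.2 and 97.9 CPM in the controls and 45.4, 56.0 and 38.4 CPM in TAA, a log2 fold change of -0.89 ± 0.17 (SE) with an unadjusted p of 0.00107 and an edgeR adjusted p of 0.419. Its partner chain Cd8b had a log2 fold change of -0.85. Cd3e, a signalling chain of the T cell receptor, was at 111, 88.9 and 80.9 CPM and at 56.8, 62.7 and 45.8 CPM. Lef1, a transcription factor of naive T cells, was at 45.8, 47.0 and 44.9 CPM in the controls and 33.3, 27.3 and 20.1 CPM in TAA. None of these genes had overlapping groups, and TAA 3 was the lowest library in Cd8a, Cd3e and Lef1. Cd4, which rat macrophages express as well as helper T cells, was not lower: it was at 166, 244 and 238 CPM in the controls and 185, 273 and 284 CPM in TAA, with a log2 fold change of 0.19. Il7r, the interleukin 7 receptor, also overlapped, with a log2 fold change of 0.21.

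B cell genes stood in contrast. Of 22 tested members 10 were higher and 12 lower, with a median of -0.07. Ms4a1, the B cell surface protein CD20, was at 364, 331 and 359 CPM in the controls and 296, 375 and 283 CPM in TAA, and the groups overlapped. Separated members went both ways, with 2 higher and 3 lower, against 6.73% and 8.00% of all genes. The complement receptor Cr2 of mature B cells was lower, at 1021, 904 and 940 CPM against 718, 838 and 547 CPM. The transcription factors Bach2 and Ebf1 were higher by 0.40 and 0.26 on the log2 scale. Plasma cell genes had a median of 0.13 with 0 of 14 separated, against 14.7% of all genes in either direction. The difference between the T cell and B cell lists was not tested.

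Receptors and granule proteases of natural killer (NK) and cytotoxic cells were in part lower. Of 19 tested members 14 were lower, with a median of -0.44, and 4 were separated (21.1% of the list against 8.00% of all genes). Klrd1, the CD94 chain that pairs with inhibitory or activating NK receptors, was at 22.9, 26.3 and 32.6 CPM in the controls and at 13.0, 12.1 and 13.8 CPM in TAA. The log2 fold change was -1.07 ± 0.17 (SE), with an unadjusted p of 0.000443 and an edgeR adjusted p of 0.399. Gzmm, a granzyme, was at 95.2, 84.4 and 101 CPM and at 56.7, 64.4 and 55.2 CPM, and the cathepsin Ctsw of the same cells at 62.3, 52.2 and 53.2 CPM and at 31.9, 31.6 and 37.7 CPM. The pore-forming protein Prf1 did not follow: its values of 67.1, 116 and 106 CPM in the controls and 78.3, 112 and 101 CPM in TAA overlapped, and its log2 fold change was 0.01. Nkg7 and Ncr1, which encode a granule membrane protein and an activating NK receptor, overlapped too, with log2 fold changes of -0.03 and -0.18.

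**Figure D4:**
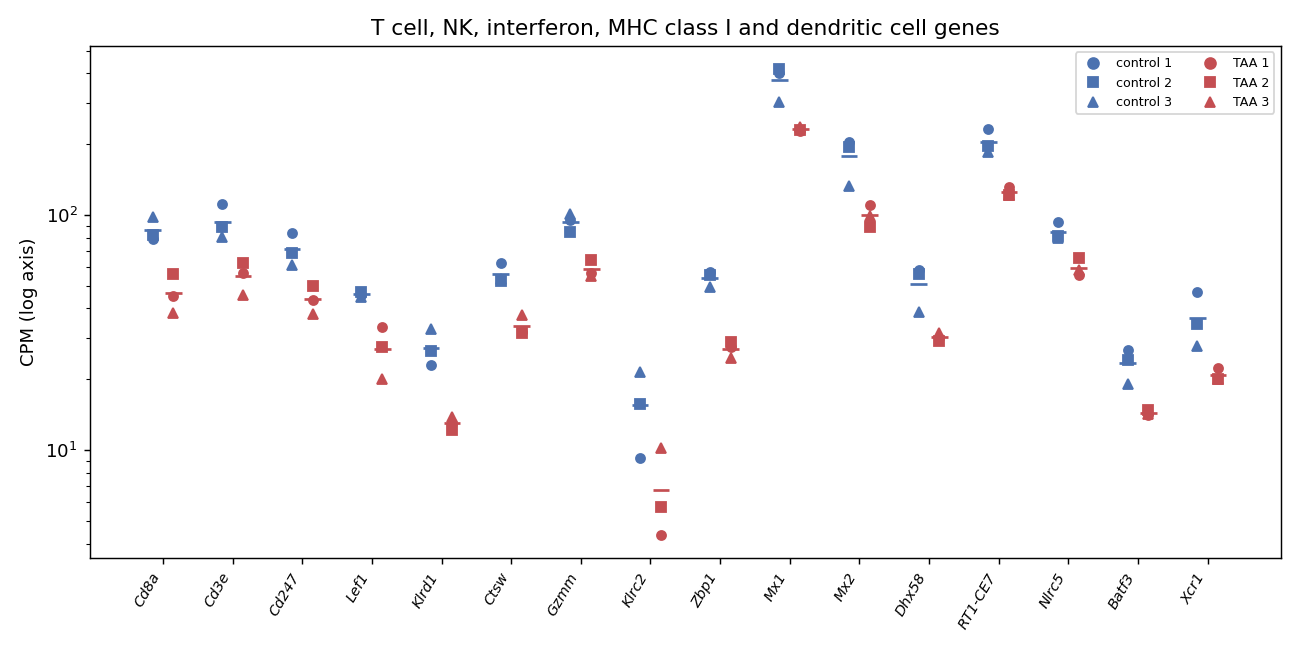
CPM (log axis) of genes of T cells, NK cells, the interferon response, MHC class I and dendritic cells in each library, with control in blue, TAA in red, marker shapes for replicates and short lines for group means. Of the genes shown, all but Klrc2 have every TAA library below every control, and the 3 TAA values of Mx1 lie within 227 to 236 CPM.

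Interferon response genes were lower by a small amount. Interferons bind surface receptors and switch on antiviral genes whose promoters carry an interferon-stimulated response element (ISRE). Of 37 tested members 33 were lower, with a median of -0.31 (-0.39 to -0.26 with 1 library left out). An unadjusted p under 0.05 was found for 14 lower members and 1 higher one, against 3.90% and 4.04% of all genes. Of the list, 15 were separated, all lower, or 40.5% against 8.00% of all genes. DESeq2 called 5, all lower, against 0.373% of all genes in that direction.

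To show the kind of sequence these promoters share, the stretches around the ISRE matches are given for the 3 lower members with the smallest p that hold one in the window from 250 bases before to 50 bases after the start of the gene. They were read from RefSeq's promoters on build GRCr8, 5′ to 3′ along the gene, with matches to GAAANNGAAA on either strand in capitals. Overlapping matches are joined.
Ifi44 (chr2:243303791-243303906, minus strand): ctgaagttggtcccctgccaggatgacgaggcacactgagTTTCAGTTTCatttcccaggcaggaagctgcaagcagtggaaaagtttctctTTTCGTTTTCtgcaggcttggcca
Irgm (chr10:33742563-33742652, minus strand): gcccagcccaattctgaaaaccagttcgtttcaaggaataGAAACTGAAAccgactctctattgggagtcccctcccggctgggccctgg
Oas1a (chr12:41330385-41330480, plus strand): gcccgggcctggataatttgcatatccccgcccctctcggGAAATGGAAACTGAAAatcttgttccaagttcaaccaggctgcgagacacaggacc

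A match to these letters was found in 18 of the 26 list members with a promoter in the table (69.2%), against 3.92% of 33469 promoters of the same length. The list was made from known interferon targets, so the share describes the list and is not a result of the TAA comparison. Ifi44, an interferon-induced protein with 2 matches in reverse orientation, was at 106, 97.6 and 61.3 CPM in the controls and 42.4, 41.1 and 54.8 CPM in TAA. Irgm, an interferon-induced GTPase with 1 match, was at 51.5, 52.7 and 45.3 CPM and at 36.6, 40.8 and 41.0 CPM. Oas1a, which makes the messenger that activates RNase L and has 2 overlapping matches, was at 39.0, 45.6 and 26.4 CPM and at 27.8, 18.0 and 23.2 CPM, so its groups overlapped. Rsad2, also with a match, went the other way, at 76.1, 51.6 and 32.2 CPM in the controls and 212, 56.6 and 144 CPM in TAA, and it was the 1 member with a higher value at an unadjusted p under 0.05. Its order of TAA libraries was that of the erythroid score, and the part of this in its value was not tested.

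Zbp1, a sensor of Z-form nucleic acids (ENSRNOG00000006314, chromosome 3, 171276062 to 171286537), had the smallest p of the named genes with lower values. It was at 57.4, 55.5 and 49.6 CPM in the controls and at 27.3, 28.7 and 24.7 CPM in TAA. The means were 54.1 ± 4.05 and 26.9 ± 2.06 CPM (SD, n = 3 each), and the log2 fold change was -1.01 ± 0.12 (SE), with an unadjusted p of 6.56e-05 and an edgeR adjusted p of 0.223. Mx1, an antiviral GTPase, was at 403, 417 and 301 CPM and at 227, 230 and 236 CPM. Isg15, a ubiquitin-like protein, was at 61.0, 49.9 and 30.6 CPM and at 28.1, 20.1 and 22.7 CPM. In Mx1 and Isg15 control 3 was the lowest control, so that the distance between groups was set by that library. Irf7, an interferon-inducible regulator, overlapped between groups.

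Genes of antigen presentation on MHC class I had a median of -0.38 (-0.20 without control 1), with 15 of 18 lower. Of these, 6 were separated downwards, against 8.00% of all genes. RT1-CE7, a rat class I gene, was at 232, 196 and 184 CPM in the controls and 132, 121.5 and 121.1 CPM in TAA (log2 fold change -0.71 ± 0.12 (SE), edgeR adjusted p = 0.400). Nlrc5, the activator of class I transcription, was at 93.4, 81.3 and 80.0 CPM and at 55.5, 65.3 and 58.2 CPM. The RT1 genes are a family of close copies that differ between rat strains, so reads can be split among them and single members are uncertain. The invariant light chain B2m overlapped, with a log2 fold change of -0.16. For MHC class II, the invariant chain Cd74 was separated at 7313, 6680 and 6388 CPM against 5044, 5525 and 5143 CPM, although the list median was -0.11.

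Dendritic cell genes were lower in 14 of 19, with a median of -0.28, and 5 were separated (26.3% of the list against 8.00% of all genes). Batf3, a factor needed by cross-presenting dendritic cells, was at 26.7, 24.2 and 19.2 CPM in the controls and at 14.02, 14.8 and 14.3 CPM in TAA. Xcr1, the chemokine receptor of those cells, was at 47.1, 34.4 and 27.8 CPM and at 22.3, 20.1 and 20.1 CPM, and Xcl1, its ligand made by NK and CD8 T cells, had a log2 fold change of -0.89 with separated groups. Clec9a and Flt3, further genes of this lineage, overlapped because TAA 3 lay within the controls.

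Circadian clock genes differed in both directions, with little spread within groups for several of them. The clock is a transcription loop in which the activators Bmal1 (the product of Arntl), Clock and Npas2 bind E-box sequences and switch on the Per and Cry repressors and the Nr1d receptors, which in turn repress Arntl and Npas2. A second arm runs through the D-box factors Dbp and Tef. Of 20 tested members, 6 were higher and 2 lower at an unadjusted p under 0.05, or 40% of the list against 7.95% of all genes. Separated members were 5 higher and 2 lower, against 6.73% and 8.00% of all genes, and the list median was 0.05. DESeq2 called 3 higher and 1 lower, against 0.559% and 0.373% of all genes.

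Npas2 (ENSRNOG00000013408, chromosome 9, 45901741 to 46081880) was at 10.2, 8.49 and 9.20 CPM in the controls and at 2.86, 3.76 and 3.00 CPM in TAA. Arntl was at 24.5, 37.0 and 36.3 CPM and at 20.0, 16.9 and 24.0 CPM. Both activators were thus below every control in every TAA library, Npas2 by a log2 fold change of -1.53 ± 0.23 (SE; unadjusted p = 0.000261, edgeR adjusted p = 0.399) and Arntl by -0.68 ± 0.21, with Arntl in TAA 3 just under control 1. Nr1d1 and Nr1d2, the receptors that repress them, were higher. Nr1d1 was at 24.6, 18.1 and 14.5 CPM in the controls and 35.0, 41.3 and 38.9 CPM in TAA, and Nr1d2 at 65.1, 54.8 and 57.8 CPM and 82.4, 86.7 and 97.1 CPM. Their log2 fold changes were 1.01 ± 0.21 and 0.58 ± 0.12 (SE).

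Per2, a repressor of the loop, was at 18.3, 22.7 and 18.2 CPM in the controls and 28.2, 29.4 and 30.9 CPM in TAA. Per3 was at 12.7, 20.8 and 18.0 CPM and at 30.3, 23.1 and 24.1 CPM. Tef was at 57.2, 58.8 and 62.5 CPM and at 78.9, 87.4 and 85.3 CPM. All 3 were separated, and the TAA libraries lay closer to each other in Per2 and Tef than to any control. Dbp was higher in TAA 1 and TAA 2, at 72.8 and 77.5 CPM, but 41.9 CPM in TAA 3 lay below control 1 at 45.8 CPM. Clock, Cry1, Cry2 and Per1 overlapped, with log2 fold changes of 0.05, -0.28, -0.20 and -0.09. The sources used here do not give the hour at which each spleen was taken, and a difference in hour and a difference in treatment cannot be told apart.

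**Figure D5:**
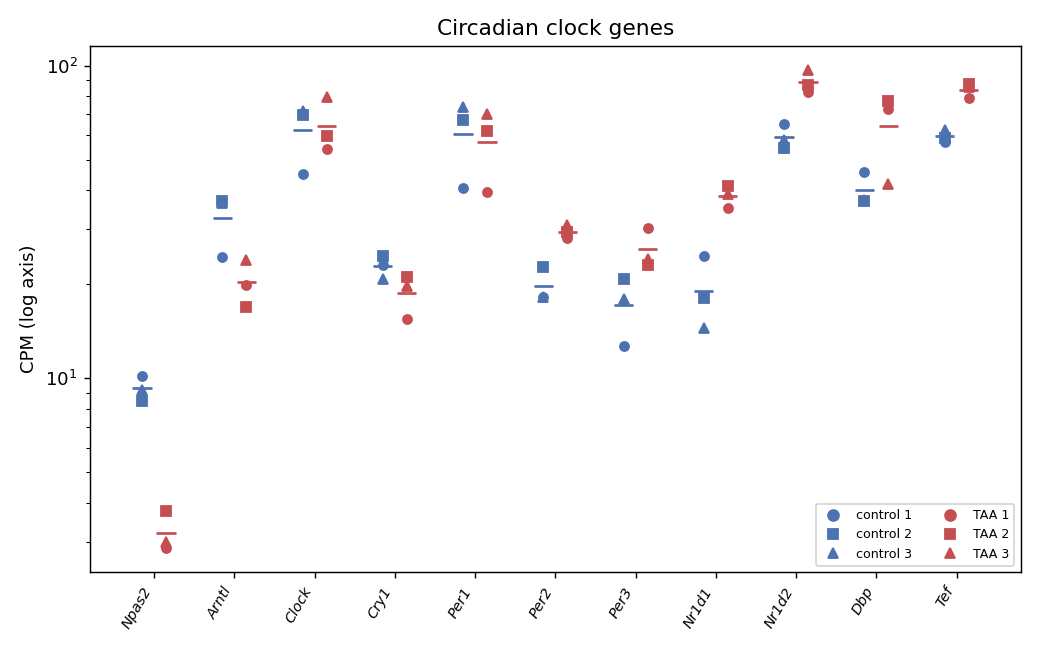
CPM (log axis) of 11 circadian clock genes in each library, with control in blue, TAA in red, marker shapes for replicates and short lines for group means. Npas2 and Arntl lie lower in every TAA library and Per2, Per3, Nr1d1, Nr1d2 and Tef higher, whereas Clock, Cry1, Per1 and Dbp overlap.

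Clock control elements are shown for the separated members that hold one in their promoter window. RefSeq's GRCr8 promoters are again given 5′ to 3′ along the gene, with the E-box CACGTG of Tef and the D-box TTATGTAA of Per2 in capitals.
Tef (chr7:115206589-115206674, plus strand): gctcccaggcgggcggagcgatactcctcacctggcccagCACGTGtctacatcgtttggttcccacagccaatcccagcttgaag
Per2 (chr9:99497138-99497225, minus strand): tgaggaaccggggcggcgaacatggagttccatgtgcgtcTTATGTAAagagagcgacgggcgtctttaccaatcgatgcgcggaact
The E-box letters start 198 bases before the start of Tef and the D-box letters 192 bases before that of Per2. On either strand, CACGTG was present in 4 of the 16 clock promoters in the table (25.0%) and in 6.42% of all promoters, and TTATGNAA in 1 of 16 (6.25%) and in 3.66%. The letters TNGGTCA, the end of the element that Nr1d receptors bind, were in 0 of 16 of these windows and in 11.1% of all promoters. Such matches describe letters in these windows only.

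Chemokine genes were mostly lower, with 21 of 31 below 0 and a median of -0.45, but the median was -0.24 without control 1 and -0.15 without control 1 and TAA 1. Of the list, 7 were separated downwards and 2 upwards, against 8.00% and 6.73% of all genes. Ccl22, a dendritic cell and macrophage chemokine, was at 6.49, 5.09 and 3.99 CPM in the controls and 1.72, 3.20 and 1.68 CPM in TAA, and its receptor Ccr4 at 1.90, 3.17 and 3.24 CPM and 1.22, 1.39 and 0.999 CPM. Both were separated. Il6, the inflammatory cytokine, was at 4.35, 7.13 and 3.65 CPM and at 1.65, 2.09 and 2.31 CPM, a log2 fold change of -1.32 ± 0.34 (SE) with an edgeR adjusted p of 0.542. It was the 1 of 21 tested inflammatory cytokine genes with an unadjusted p under 0.05 (4.76%, against 7.95% of all genes), and that list's median was -0.11. Cish and Socs1, feedback inhibitors of cytokine signalling, had log2 fold changes of -0.89 and -0.94 and were separated downwards. Their list, genes of TNF, NF-kB and JAK signalling, was mixed, with 11 of 30 tested members higher, 19 lower and a median of -0.09, and the kinase gene Pim1 of that list was separated upwards with a log2 fold change of 0.47. White pulp organising genes had a median of -0.24, and this was -0.03 without control 1. In Ccl21, a chemokine that draws T cells and dendritic cells into the white pulp, control 1 was at 2685 CPM and the other 5 libraries between 779 and 937 CPM.

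Prostanoid genes did not lie in one direction: 12 of 21 were higher and 9 lower, with a median of 0.07. Ptgs1, the constitutive cyclooxygenase, was at 29.4, 40.6 and 42.7 CPM in the controls and 48.5, 48.8 and 73.7 CPM in TAA, a log2 fold change of 0.60 ± 0.22 (SE) with an unadjusted p of 0.0289 and an edgeR adjusted p of 0.601. Ptgs2, the inducible enzyme that celecoxib inhibits, was scarce at 1.16, 0.906 and 1.10 CPM and at 0.644, 0.836 and 1.26 CPM, and its groups overlapped. Per gene length, mean Ptgs1 in TAA was 20.0 FPKM and mean Ptgs2 0.206 FPKM. Hpgd, which inactivates prostaglandins, was separated downwards, at 21.3, 14.6 and 18.9 CPM against 10.5, 9.47 and 9.46 CPM.

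Fibrosis genes showed no common shift. The 20 tested collagens divided evenly with a median of 0.01, and 34 other matrix genes had a median of 0.05. Col1a1 and Col3a1, the main fibrillar collagens, overlapped, with log2 fold changes of -0.58 and -0.35. Single genes differed: Dcn, the collagen-binding proteoglycan decorin, was at 2.57, 2.89 and 2.89 CPM in the controls and 6.80, 6.69 and 7.36 CPM in TAA (log2 fold change 1.32 ± 0.22 (SE), unadjusted p = 0.000522, edgeR adjusted p = 0.400). Col6a5, a collagen VI chain, was separated downwards at 331, 274 and 285 CPM against 178, 118 and 181 CPM, and the related chain Col6a4 likewise with a log2 fold change of -1.37. Lgals1, galectin 1, was at 48.5, 59.0 and 59.3 CPM in the controls and 31.5, 29.9 and 27.2 CPM in TAA, with a log2 fold change of -0.91 ± 0.13 (SE).

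Glycolysis genes were higher in 18 of 22, with a median of 0.19, and 7 were separated upwards, against 6.73% of all genes. Hk1, the hexokinase of the first step, was at 58.3, 57.1 and 53.1 CPM in the controls and 91.5, 70.9 and 72.1 CPM in TAA, and the phosphofructokinase Pfkl at 81.6, 73.4 and 78.3 CPM and 95.5, 96.3 and 95.3 CPM. Of 27 NRF2 target genes, which respond to oxidants, 22 were higher with a median of 0.29 (0.14 without control 1). Ephx1, the microsomal epoxide hydrolase of that list, was at 23.5, 31.4 and 33.7 CPM and at 54.3, 52.5 and 60.7 CPM (log2 fold change 0.92 ± 0.16 (SE), edgeR adjusted p = 0.400). Of 60 cytosolic ribosomal protein genes 57 were lower, with a median of -0.31 that was -0.19 without control 1. Of these, 3 had an unadjusted p under 0.05 (5%, against 3.90% of all genes), whereas 17 were separated (28.3%, against 8.00% of all genes). Heat shock genes were lower in 24 of 25 with a median of -0.35, and this was -0.14 without control 2, where Hspa8 was at 1528 CPM beside 593 to 855 CPM in the other 5 libraries.

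The 2 genes with the smallest p carry locus or clone names rather than symbols of characterised genes, and they were chosen for the text after their values were seen. LOC100911575, annotated in the files as similar to the ribosomal stalk protein P2 (ENSRNOG00000037607, chromosome 1, 214428526 to 214430515), was at 177, 147 and 290 CPM in the controls and 13.2, 16.7 and 9.67 CPM in TAA, a log2 fold change of -3.96 ± 0.33 (SE) with an edgeR adjusted p of 0.0699. Related entries bear on it: Rplp2, the P2 gene itself, held 0 to 13 counts in any library, and the P2-like entry LOC498555 held 2534 to 5698. AC141521.1, a long intergenic non-coding RNA (ENSRNOG00000053147, chromosome 20, 5779066 to 5785728), was at 0.797, 1.08 and 0.810 CPM and at 13.5, 10.1 and 7.94 CPM, with the same adjusted p. Tnks2, a tankyrase, has 2 entries that went opposite ways. The entry on chromosome 1 was at 14.5, 8.09 and 17.6 CPM in the controls and 0.143, 0.766 and 0.736 CPM in TAA, while the entry on an unplaced scaffold was at 9.37, 1.13 and 1.04 CPM and at 15.1, 25.2 and 21.5 CPM. Summed, they were at 23.9, 9.23 and 18.6 CPM and at 15.2, 26.0 and 22.2 CPM, and the groups overlapped. Reads of near-identical copies can be assigned to one copy or the other, so values of such entries are uncertain. Of 36 symbols with more than 1 tested protein-coding entry, Tnks2 was the 1 with separated entries in opposite directions.

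Among well-annotated genes with small p that belong to none of the lists above, Asb2, a ubiquitin ligase adaptor, was at 35.8, 35.0 and 38.7 CPM in the controls and 18.0, 20.7 and 16.5 CPM in TAA (log2 fold change -0.99 ± 0.14 (SE), edgeR adjusted p = 0.325). Jaml, an adhesion molecule of leukocytes, was at 87.4, 84.3 and 87.0 CPM and at 57.7, 59.0 and 56.6 CPM. Ptn, the growth factor pleiotrophin, was at 39.7, 41.7 and 29.3 CPM and at 16.3, 20.8 and 16.0 CPM. Npr3, the clearance receptor for natriuretic peptides, was higher, at 0.429, 1.02 and 0.579 CPM and at 2.50, 5.16 and 4.89 CPM, and Mdc1, a mediator of the DNA damage checkpoint, was at 23.3, 22.6 and 20.7 CPM and at 60.1, 36.8 and 47.0 CPM. All 5 genes were separated.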

How the data were processed

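RNA was sequenced from rat spleen, and 3 control and 3 TAA libraries were used here. Raw gene counts and FPKM values, as deposited by the authors, were used (FPKM is scaled by gene length and library). HISAT2 2.0.5 and mRatBN7.2 are named in the submitters' processing notes, while the sources used here give neither counting tool nor strand setting. Coordinates reach 282724300 on chromosome 1 and carry scaffold names foreign to mRatBN7.2, so their build is unresolved and they are printed as the files give them. They are not to be combined with the GRCr8 promoter coordinates. Antisense and overlapping genes may share reads.

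Counts of the 6 libraries were fitted with edgeR 4.0.16 (quasi-likelihood, TMM, filterByExpr with minimum count 10 and total 15) in R 4.3.3, 2-sided, with Benjamini-Hochberg adjustment at 0.05. One count equals 0.0526 to 0.0704 CPM, and the common biological coefficient of variation was 0.281. DESeq2 1.42.0, limma-voom (limma 3.58.1), other scalings, filters and sets of libraries were alternatives. FPKM served only to compare levels between genes. The procedure was tested on simulated data.

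The members and the gene lists were chosen with earlier results of these data known. Named genes are the 15 higher and 15 lower with the smallest p, the 10 largest separated changes each way at a mean of at least 1 CPM in both groups (both only among symbols that do not start with LOC, RGD, AABR, AC or ENSRNOG), the 4 smallest-p members of each list, and Ptgs1, Ptgs2, Alb, Cd8a, Cd68 and 1 gene that is not reported here. Genes past the threshold would have come first, but there were none. Other genes in the text, LOC100911575 and AC141521.1 among them, were chosen after their values were seen.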

Additional observations from a re-analysis of the deposited data

How the results depend on the processing

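The number of genes called was 0 under limma-voom, other size factors, all 9 libraries in the fit, the fit without haemoglobin, immunoglobulin, mitochondrial and hepatocyte-list genes, and each fit without 1 library (0 to 0, with 900 to 1265 genes at an unadjusted p under 0.05). DESeq2 called 145. Without the filter on low counts edgeR called 2, LOC100911575 and AC141521.1. Without control 1 and TAA 1 it also called 2, NEWGENE_1310561 and the Tnks2 entry on an unplaced scaffold. Separated genes numbered 3556 to 4425 without 1 library and 5669 without control 1 and TAA 1, where fewer values must be apart. The replicate block gave 0 calls and 1747 genes at an unadjusted p under 0.05. Deviations of same-numbered libraries correlated at 0.243, -0.0327 and 0.193, and control 2 correlated best with TAA 3 (0.121), so the numbers were not taken to pair libraries. In no setting did the median over all genes move by more than 0.1 on the log2 scale.

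Of the list medians, these moved by more than the spread of the list score within groups when libraries were left out, and the cause was not tested. Their lowest and highest medians without 1 library, or without control 1 and TAA 1, were 2.06 and 3.44 for granulocyte granules, 0.52 and 2.32 for mature neutrophils, -0.79 and -0.49 for T cells, -0.42 and -0.029 for regulatory T cells, -0.30 and -0.0092 for white pulp organisers, -0.40 and -0.15 for chemokines, 0.14 and 0.72 for haem and iron recycling, and 0.019 and 0.16 for the clock. They were -0.14 and 0.10 for progenitors, -0.22 and 0.083 for smooth muscle, -0.05 and 0.042 for p53 targets, -0.12 and -0.041 for TNF, NF-kB and JAK genes, -0.65 and 3.55 for hepatocytes, 0.053 and 0.96 for pancreas, and -0.72 and 0.63 for mesothelium. Limma-voom gave 1.03 for hepatocytes.

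Of 244 named genes, 11 changed sign when libraries were left out. The lowest and highest log2 fold changes were -0.092 and 0.81 for Fabp4, -0.89 and 0.31 for Lrrn4, -0.26 and 0.035 for Cidec, -3.09 and 4.42 for Apoa1, -2.31 and 5.46 for Hpx, and -0.41 and 0.12 for Lipe. For Krt8 they were -0.25 and 1.75, for Krt18 -0.65 and 1.59, for Cela2a -0.12 and 1.28, for Fcgr2a -0.013 and 0.67, and for Ptgs2 -0.51 and 0.068. DESeq2 called 52 of the named genes, against 0.932% of all genes. Most named genes were picked by small p or large change in these same libraries, so this count is not separate support.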

Other observations

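Other lists of the spleen held some genes with separated groups. Of 23 unfolded protein genes, 4 were separated upwards and 1 downwards. Of 22 vasoactive genes 1 was separated upwards (4.55%), and of 15 regulatory T cell and checkpoint genes 3 downwards (20%). Over all genes the shares were 6.73% upwards and 8.00% downwards. Asns, which makes asparagine and is induced when amino acids are short, was at 34.6, 31.2 and 31.9 CPM in the controls and 76.6, 42.2 and 55.6 CPM in TAA. Edem1, which helps to clear misfolded proteins from the endoplasmic reticulum, was at 187, 177 and 191 CPM and at 241, 267 and 236 CPM, while the median of the unfolded protein list was 0.05. Angpt1, a growth factor of vessel walls, was at 2.14, 7.30 and 8.16 CPM and at 10.6, 12.9 and 18.0 CPM. Lag3 encodes a checkpoint receptor that binds MHC class II and was lower in TAA, at 24.6, 20.4 and 27.1 CPM in the controls against 13.4, 19.1 and 15.3 CPM. Asns, Edem1, Angpt1 and Lag3 each had an unadjusted edgeR p under 0.05 and an adjusted p above the threshold.

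Fkbp5, a gene that glucocorticoids induce, was at 120, 92.5 and 94.8 CPM in the controls, and the TAA libraries held 104, 191 and 268 CPM, so TAA 1 lay below control 1. The cholesterol synthesis, proteasome and nuclear respiratory chain lists had medians of -0.06, 0.02 and -0.01, with 0, 1 and 1 members at an unadjusted p under 0.05. These were 0%, 3.33% and 3.12% of the lists, against 7.95% of all genes.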
